A study of Mus musculus with 15 samples.

Results

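Macrophages of mouse visceral fat had been sorted into a CCR2-high and a CCR2-low subset in the steady state, and the comparison asked how the transcripts of these subsets differ. The 6 libraries compared, of 15 in the series, were chosen by their labels alone: 3 of CX3CR1-high CCR2-high cells (CCR2-high here) and 3 of CX3CR1-low CCR2-low cells (CCR2-low here). All 6 came from visceral adipose tissue of C57BL/6 mice, a common inbred laboratory strain, with no treatment labelled. RNA of the sorted cells was taken up with a PicoPure kit, which is made for small cell numbers. The sources used here do not give age, sex, cell numbers, pooling of mice or gates. The 3 libraries labelled blood monocytes of the same table entered only the choice of genes to test and the estimate of the spread.

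CCR2 is the receptor for the chemokine CCL2 and brings monocytes from blood into tissue. Macrophages that keep CCR2 are, in many mouse tissues, replaced from monocytes, while TIMD4-bearing and LYVE1-bearing macrophages tend to maintain themselves in place. In fat, the LYVE1-bearing cells lie along vessels, and fat that hangs in the peritoneal cavity is bathed by fluid rich in large peritoneal macrophages, which depend on the factor GATA6.

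Levels are given in TPM, a share of all transcripts that is scaled for gene length and sums to the same total in every library. Fold changes are log2 differences of TPM + 1 between the means of 3 CCR2-high and 3 CCR2-low libraries, so they understate the change of low genes. Genes were called at an adjusted p below 0.05 in limma (two-sided, Benjamini-Hochberg over 15467 genes). The deposited values give no read totals. The most frequent low value of TPM times gene length, over 5762 genes of known length, was taken as 1 read. In a 1-kb gene this is 0.0411 to 0.0479 TPM in CCR2-high libraries and 0.0415 to 0.0521 TPM in CCR2-low libraries. It is an estimate that rests on 13 to 17 genes in each CCR2-high library and on 7 to 12 in each CCR2-low library. Nothing in the labels says that the libraries of a group came from separate mice, so the p-values measure the spread between these samples, which may be technical.

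Of 15467 genes tested, 2733 were called, which is 17.7% of them. CCR2-high libraries were higher in 1381 (8.93%) and lower in 1352 (8.74%). Every count of called list members below is to be read beside these shares. At an absolute log2 fold change of 1 or more, 337 genes were higher and 508 were lower. The groups did not overlap in either direction in 37.7% of the genes tested. The first principal component of the 6 libraries, with 55.6% of the variance, separated the groups. The second, with 17.3%, set CCR2-high replicate 3 and CCR2-low replicate 2 apart from the other 4. Leaving out 1 macrophage library at a time left 1488 to 2434 called genes. The lowest counts came without CCR2-high replicate 1 (1488), CCR2-high replicate 3 (1811), CCR2-low replicate 1 (1728) and CCR2-low replicate 3 (1729). A named gene that lost its call in such a fit is marked as such below.

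Ccr2 and Cx3cr1, the genes of the markers named in the labels, checked the labels. Ccr2 (mm10, chr9:124101950-124113557) had 436, 471 and 446 TPM in the CCR2-high libraries, against 66.3, 78.8 and 83.2 TPM in the CCR2-low libraries (log2 fold change 2.56, SE 0.11, adjusted p = 1.3e-06). Its transcript was therefore lower but present in every CCR2-low library. Cx3cr1, the fractalkine receptor, had 52.6, 70.3 and 78.1 TPM in CCR2-high libraries, against 1.94, 1.59 and 2.55 TPM in CCR2-low libraries (log2 fold change 4.48, SE 0.21, adjusted p = 2.2e-06). No gene that met the naming rule had a larger increase. As the sort used the products of Ccr2 and Cx3cr1, their differences check the labels and are not separate results. Timd4 and Lyve1 are not named in the labels. Timd4, a receptor for phosphatidylserine on dying cells, had 31.6, 35.5 and 32.7 TPM in CCR2-high libraries and 223, 217 and 185 TPM in CCR2-low libraries (log2 fold change -2.61, SE 0.11, adjusted p = 1.3e-06). Lyve1, a hyaluronan receptor, had 104, 206 and 102 TPM in CCR2-high libraries and 808, 409 and 698 TPM in CCR2-low libraries (log2 fold change -2.23, SE 0.28, adjusted p = 0.00064). For all 4 markers the groups did not overlap, and Lyve1 was the one with a wide spread inside both.

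**Figure D1:**
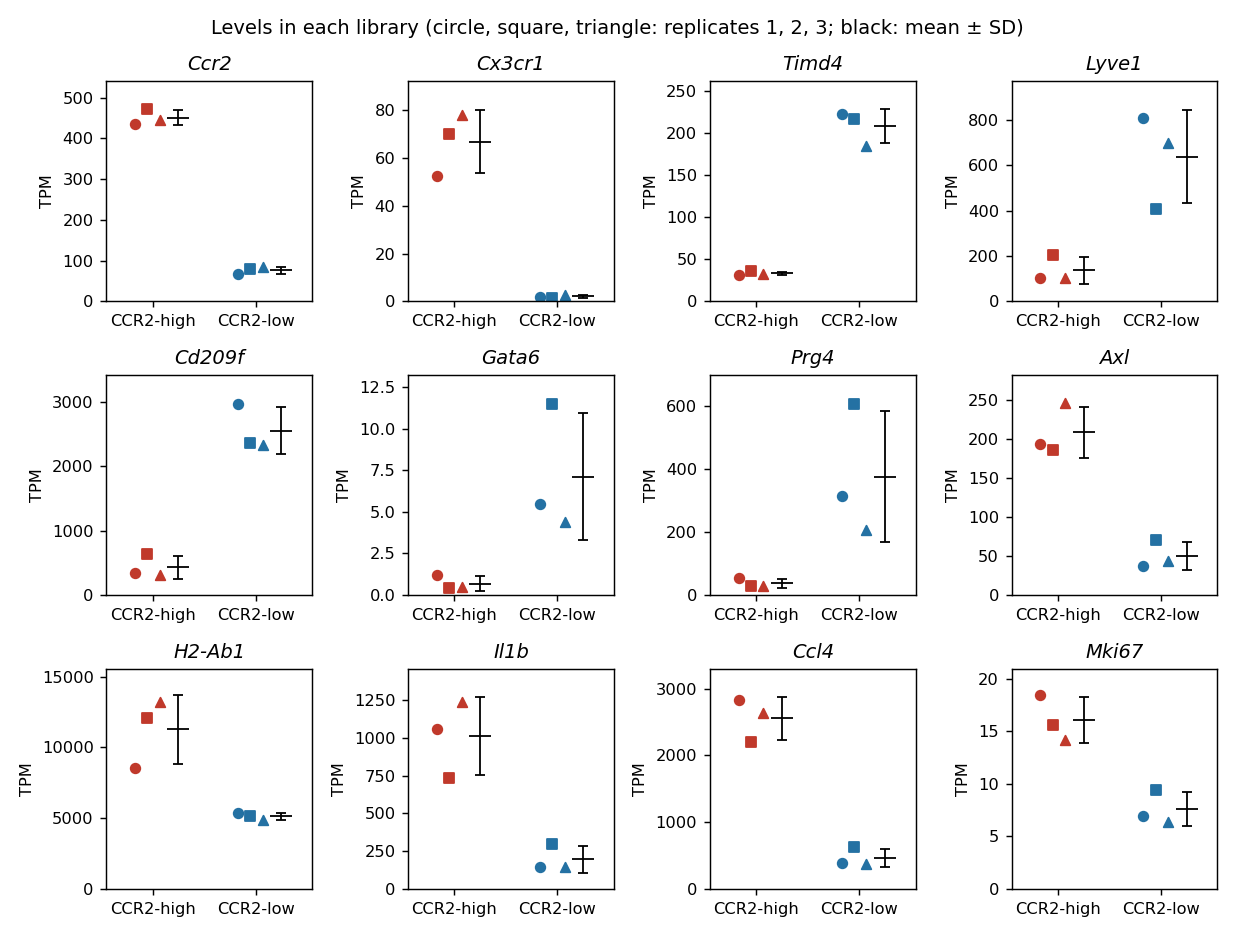
TPM of 12 genes in each library, CCR2-high (red) left of CCR2-low (blue), each panel with its own linear axis from 0. Points are libraries by replicate and black bars are mean ± SD (n = 3); Timd4 and Cd209f are lower and Axl and Ccl4 higher in CCR2-high without overlap, while Gata6 and Prg4 peak in CCR2-low replicate 2.

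Both subsets carried the macrophage genes. The F4/80 gene Adgre1 had 675, 685 and 590.2 TPM in CCR2-high libraries and 619, 746 and 692 TPM in CCR2-low libraries, and the growth factor receptor gene Csf1r had 1284 to 1621 TPM in CCR2-high libraries and 1698 to 1933 TPM in CCR2-low libraries. Neither was called, nor were Cd68 and Lyz2. Of the other genes of this list of 6, Mertk was lower, and the Fc receptor gene Fcgr1 was higher, at 69.7, 70.3 and 69 TPM in CCR2-high libraries and 58.9, 44.1 and 49.9 TPM in CCR2-low libraries (log2 fold change 0.45, adjusted p = 0.027). Fcgr1 lost its call with any macrophage library left out except CCR2-low replicate 1 (log2 fold changes of 0.36 to 0.56, adjusted p = 0.021 to 0.099 over the 6). Xist was listed at 0 in all 6 libraries, and the Y-linked gene Ddx3y had 43.6 to 61.1 TPM across them. In the libraries labelled blood monocytes, which entered the gene filter and the spread only, 12 neutrophil markers summed to 19928 to 24617 TPM. With those libraries left out of the fit but not of the filter, 2577 genes were called.

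Markers of other cells moved with the comparison. Of 18 endothelial genes tested, 15 were lower in CCR2-high libraries and 0 higher, and their summed level was 315 to 511 TPM in CCR2-high libraries and 890 to 944 TPM in CCR2-low libraries. Much of that sum was Fabp4, which macrophages also express. The endothelial cadherin gene Cdh5 had 1.62, 1.44 and 2.81 TPM in CCR2-high libraries and 4.52, 5.51 and 6.3 TPM in CCR2-low libraries. Fibroblast markers were lower in 10 of 13 tested and summed to 243 to 294 TPM in CCR2-high libraries and 332 to 510.2 TPM in CCR2-low libraries, with Dcn, the gene of the matrix protein decorin, at 5.95, 4.02 and 13.9 TPM in CCR2-high libraries and at 44.2, 77.5 and 62.8 TPM in CCR2-low libraries (log2 fold change -2.92, adjusted p = 0.0004). Adipocyte markers were lower in 7 of 9 tested and higher in 1, while their sums, at 661 to 1164 TPM in CCR2-high libraries and 1039 to 1093 TPM in CCR2-low libraries, overlapped. The member called higher was Lpl, which is also listed for lipid-associated macrophages. It made up much of the highest CCR2-high sum, so the overlap does not show equal levels of the other members. Adipoq, the adiponectin gene, had 2.9, 3.35 and 1.71 TPM in CCR2-high libraries and 11.1, 4.91 and 8.29 TPM in CCR2-low libraries.

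Mesothelial markers were lower in 5 of 8 tested. Msln, the mesothelin gene, had 0, 0 and 0.455 TPM in CCR2-high libraries and 1.41, 2.22 and 1.76 TPM in CCR2-low libraries, and the defining factor gene Wt1 stayed at or under 0.125 TPM in all 6. Without CCR2-high replicate 1 the lower counts were 12 of the endothelial, 6 of the fibroblast, 4 of the mesothelial and 5 of the adipocyte genes. B cell, T and NK cell, neutrophil, and eosinophil, basophil and mast cell markers had 3 calls higher and 3 lower among 39 tested genes. Of all genes tested, 17.7% were called. Ly6g and Mcpt8, defining genes of neutrophils and basophils, were at 0 in all 6 libraries. Ly6g was still tested, as it passed the filter through the libraries labelled blood monocytes. The 39 therefore include genes that could not be called. In bulk libraries, fewer cells of a type and less RNA per cell cannot be told apart, and the part of these other cells in the results that follow was not tested.

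**Figure D2:**
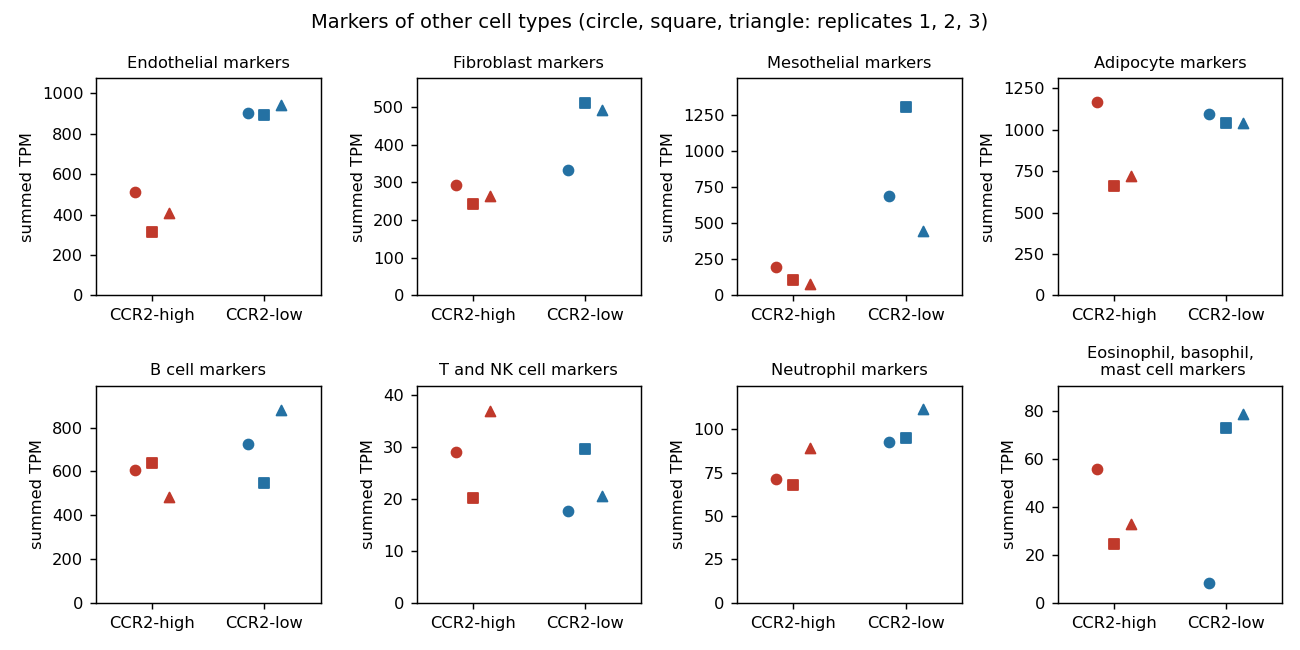
Summed TPM of 8 marker lists in each library, CCR2-high (red) left of CCR2-low (blue), each panel with its own axis from 0. Endothelial sums are 315 to 511 TPM in CCR2-high and 890 to 944 TPM in CCR2-low libraries, and the mast cell panel shows CCR2-low replicate 1 at 8.44 TPM, below the other 5 libraries.

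CCR2-high libraries held less transcript of perivascular resident macrophage genes. Of 20 listed and tested, 15 were lower, 0 were higher and 5 were not called, with a median log2 fold change of -1.40, beside a median of -0.01 over all genes tested. Folr2, a folate receptor gene, had 691, 1009.8 and 606 TPM in CCR2-high libraries and 2996, 1961 and 2616 TPM in CCR2-low libraries (log2 fold change -1.73, adjusted p = 0.00033). Fcna, which encodes the lectin ficolin A, had 286, 281 and 207 TPM in CCR2-high libraries and 1867, 1229 and 1480.2 TPM in CCR2-low libraries (log2 fold change -2.55, adjusted p = 1.7e-05). The scavenger receptor gene Colec12 had 19.5, 26.2 and 20.3 TPM in CCR2-high libraries and 148, 121 and 140.2 TPM in CCR2-low libraries (log2 fold change -2.58, adjusted p = 3.9e-06). Ednrb, an endothelin receptor gene, fell by 2.59 and the haemoglobin scavenger gene Cd163 by 1.51 on the log2 scale. The list did not move as 1 block. Igf1 had 67.3, 64.6 and 61.2 TPM in CCR2-high libraries and 72.2, 73.8 and 84.8 TPM in CCR2-low libraries, and Mgl2, a galactose lectin gene, had 594, 1051 and 754 TPM in CCR2-high libraries and 1028, 535 and 1039.7 TPM in CCR2-low libraries. Neither was called.

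All 7 Cd209 genes, which encode sugar-binding lectins of the DC-SIGN family and lie within chr8:3743397-4137707 of mm10, were lower in CCR2-high libraries. Cd209f had 351, 635 and 305 TPM in CCR2-high libraries and 2975, 2357 and 2339.8 TPM in CCR2-low libraries (log2 fold change -2.63, SE 0.23, adjusted p = 0.00011). Cd209b had 27.3, 68.7 and 18 TPM in CCR2-high libraries and 416, 217 and 331 TPM in CCR2-low libraries (log2 fold change -3.22, SE 0.39, adjusted p = 0.00048). The smallest change was that of Cd209a, at 111, 191 and 95.2 TPM in CCR2-high libraries and 452, 154 and 402 TPM in CCR2-low libraries. Its groups overlapped, and its log2 fold change of -1.26 (adjusted p = 0.036) lost its call when any of CCR2-high replicates 1 and 3 and CCR2-low replicates 1 and 3 was left out (-1.17, -1.05, -0.97 and -1.06). Cd209f and Cd209g share 38.1% and 38.7% of the 50-base windows of their longest coding transcripts with another family member, so reads could be split between them.

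Genes typical of large peritoneal macrophages were lower in CCR2-high libraries in 21 of 24 tested, with 0 higher and a median log2 fold change of -2.42. Gata6, their defining factor, had 1.19, 0.407 and 0.479 TPM in CCR2-high libraries and 5.47, 11.5 and 4.39 TPM in CCR2-low libraries (log2 fold change -2.19, SE 0.29, adjusted p = 0.00073). Prg4, the gene of the lubricant proteoglycan 4, had 54.4, 30.5 and 28.7 TPM in CCR2-high libraries and 316, 607 and 205 TPM in CCR2-low libraries (log2 fold change -3.19, adjusted p = 0.00029). The lipoxygenase gene Alox15 had 99.9, 57 and 57 TPM in CCR2-high libraries and 458, 1046 and 387 TPM in CCR2-low libraries (log2 fold change -3.03, adjusted p = 0.00038). Selp, the P-selectin gene, fell by 3.08, the latent TGF-beta binding gene Ltbp1 by 3.21, the coagulation factor gene F5 by 3.01, and the antiprotease gene Slpi, also a mesothelial product, by 2.73. C4b, a complement gene, had 102, 96.8 and 103 TPM in CCR2-high libraries and 570.0, 836 and 576 TPM in CCR2-low libraries (log2 fold change -2.68, adjusted p = 3.9e-06). In each of these genes the highest CCR2-low library was replicate 2. The summed mesothelial markers had 77.5 to 196 TPM in CCR2-high libraries and 447 to 1302 TPM in CCR2-low libraries, nearly all of it Slpi. Without Slpi the sums were 2.86, 1.37 and 16.4 TPM in CCR2-high libraries and 17.4, 26.4 and 16.4 TPM in CCR2-low libraries, and the groups overlapped.

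Saa3, an acute-phase gene, had the largest decrease of the genes named by rule and the widest spread. It had 133, 56.8 and 298 TPM in CCR2-high libraries and 883, 7381 and 636 TPM in CCR2-low libraries (log2 fold change -3.60, SE 0.80, adjusted p = 0.012), and its call was lost with no filter on low values (adjusted p = 0.057) or with robust variance moderation (adjusted p = 0.055). Other large decreases of CCR2-high libraries were in the aminopeptidase gene Enpep, at 3.52, 7.65 and 1.41 TPM in CCR2-high libraries and 69.7, 29.4 and 71 TPM in CCR2-low libraries, and in the dynamin gene Dnm1, at 1.89, 3.56 and 1.3 TPM in CCR2-high libraries and 22.5, 16.1 and 24.3 TPM in CCR2-low libraries. For Enpep, CCR2-high replicate 2 was the highest of its group and CCR2-low replicate 2 the lowest of its own.

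Genes for the uptake of dying cells split between the subsets. Of 19 tested of 23 listed, 5 were higher, 6 were lower and 8 were not called. Axl, a receptor kinase that binds GAS6 on dying cells, had 194, 185 and 246 TPM in CCR2-high libraries, against 36.6, 70.3 and 44 TPM in CCR2-low libraries (log2 fold change 2.07, SE 0.21, adjusted p = 0.00023). Its relative Mertk had 42.5, 48 and 41.2 TPM in CCR2-high libraries, against 67.2, 73.8 and 75.2 TPM in CCR2-low libraries (log2 fold change -0.70, SE 0.11, adjusted p = 0.0018). The groups did not overlap for either kinase, and the changes had opposite signs. Both bridging ligands of this kinase family were lower. Gas6 had 368, 609 and 355 TPM in CCR2-high libraries and 1019.8, 813 and 1049 TPM in CCR2-low libraries (log2 fold change -1.15, adjusted p = 0.0054, and 0.19 with a pseudocount of 0.1). Pros1, the protein S gene, fell by 0.84 on the log2 scale (adjusted p = 0.0023).

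Among receptors that do not use GAS6, Havcr2, the TIM-3 gene, had 10.9, 7.52 and 9.28 TPM in CCR2-high libraries and 0.959, 0.902 and 1.31 TPM in CCR2-low libraries (log2 fold change 2.31, adjusted p = 7.6e-05), opposite in sign to its family member Timd4. The subunits of the integrin that binds MFGE8 rose together: Itgav had 24.9, 15.1 and 15 TPM in CCR2-high libraries and 4.38, 8.84 and 7.16 TPM in CCR2-low libraries (log2 fold change 1.32, adjusted p = 0.0061), and Itgb5 had 119.9, 116 and 112 TPM in CCR2-high libraries and 32.9, 43.4 and 41.8 TPM in CCR2-low libraries (log2 fold change 1.55, adjusted p = 0.00024). Itgb3, the other partner of ITGAV on phagocytes, stayed at 0.432 to 0.866 TPM in CCR2-high libraries and 0.787 to 1.8 TPM in CCR2-low libraries. C1qa and C1qb, chains of complement C1q, had adjusted p = 0.088 and 0.16 with log2 fold changes of -0.46 and -0.23. C1qa was called without labelled monocyte replicate 2 (adjusted p = 0.041).

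Of 5 genes of the SIRP family list, 4 were higher and 0 were lower. Sirpb1a (chr3:15371653-15426520) had 107, 50.6 and 90.6 TPM in CCR2-high libraries and 1.69, 5.33 and 3.24 TPM in CCR2-low libraries (log2 fold change 4.26, SE 0.31, adjusted p = 4.5e-05). Sirpb1b and Sirpb1c lie beside it on chromosome 3 and had log2 fold changes of 4.02 and 4.13. These 3 genes share 44.2%, 67.4% and 31.3% of their 50-base windows with another family member, in the order a, b, c, so which of them gave the reads is uncertain. Sirpa, the inhibitory receptor for CD47, on chromosome 2 and with 0% of such windows, had 435, 362 and 379 TPM in CCR2-high libraries and 192, 243 and 245 TPM in CCR2-low libraries (log2 fold change 0.79, adjusted p = 0.0033). Its ligand gene Cd47 had a log2 fold change of 0.22 (adjusted p = 0.12), and was called under median-of-ratios scaling (0.25, adjusted p = 0.041) and without labelled monocyte replicate 1 (adjusted p = 0.036).

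Scavenger and pattern recognition receptor genes gave 5 higher and 5 lower of 19 tested. Marco, a class A scavenger receptor gene, had 13, 8.12 and 15.5 TPM in CCR2-high libraries and 46, 167 and 36.4 TPM in CCR2-low libraries (log2 fold change -2.38, adjusted p = 0.0053). Clec7a, the beta-glucan receptor dectin-1, had 313, 290.4 and 405 TPM in CCR2-high libraries and 137, 195 and 149 TPM in CCR2-low libraries (log2 fold change 1.06, adjusted p = 0.0015). These counts moved with single libraries, with 2 lower without CCR2-high replicate 3 or CCR2-low replicate 3, 3 higher without CCR2-high replicate 1 or CCR2-low replicate 1, and 9 higher without CCR2-low replicate 2.

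Monocyte genes were higher in 13 of 21 tested and lower in 1, with a median log2 fold change of 1.36; Ccr2 and Cx3cr1, which the sort used, are 2 of the 13. Those called included genes of the non-classical, patrolling monocyte. Treml4 had 12.8, 6.31 and 5.21 TPM in CCR2-high libraries and 0.287, 0.416 and 0.0778 TPM in CCR2-low libraries (log2 fold change 2.77, adjusted p = 0.00019). Spn, the CD43 gene, had 2.97, 3.78 and 3.37 TPM in CCR2-high libraries and 1.23, 0.83 and 0.944 TPM in CCR2-low libraries (log2 fold change 1.13), and the Fc receptor gene Fcgr4 rose by 2.02. Plac8, shared with classical monocytes, had 13.9, 12.5 and 10.8 TPM in CCR2-high libraries and 3.54, 3.34 and 1.63 TPM in CCR2-low libraries (log2 fold change 1.84, adjusted p = 0.0003). Ly6c2, the classical marker, had 32, 16.3 and 30.8 TPM in CCR2-high libraries and 20, 18.9 and 18.9 TPM in CCR2-low libraries, with CCR2-high replicate 2 below all 3 CCR2-low libraries. It was not called in all 9 libraries (adjusted p = 0.26) and was called without CCR2-high replicate 2 (log2 fold change 0.68, adjusted p = 0.0038). Chil3, a chitinase-like gene, had 59, 35.5 and 54.3 TPM in CCR2-high libraries and 0.288, 11.7 and 0.413 TPM in CCR2-low libraries (log2 fold change 4.12, adjusted p = 0.0028).

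Genes of conventional dendritic cells moved in both directions, 4 higher and 4 lower of 18 tested. Itgax, the CD11c gene, had 18.4, 20 and 30.5 TPM in CCR2-high libraries and 2.88, 12 and 6.43 TPM in CCR2-low libraries (log2 fold change 1.70, adjusted p = 0.0086). Zbtb46, a factor that marks the conventional dendritic lineage, went the other way, at 3.07, 2.94 and 3.23 TPM in CCR2-high libraries and 6.43, 7.79 and 7.29 TPM in CCR2-low libraries. It fell by 1.00 on the log2 scale (adjusted p = 0.001). Flt3, the receptor gene of that lineage, had 0.946, 1.04 and 1.5 TPM in CCR2-high libraries and 0.356, 0.493 and 0.314 TPM in CCR2-low libraries. It was not called (adjusted p = 0.061), though the groups did not overlap. Without CCR2-high replicate 1, CCR2-high replicate 3 or CCR2-low replicate 3, 2 genes of the list were lower.

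Of 28 transcription factor genes of macrophages, 5 were higher, 6 were lower and 17 were not called. Without CCR2-high replicate 1 or CCR2-low replicate 1, 3 were higher, and without CCR2-low replicate 2, 9 were higher. Spi1, the PU.1 gene that every macrophage needs, had 216 to 233 TPM in CCR2-high libraries and 204 to 220.0 TPM in CCR2-low libraries. Klf2, a factor that restrains inflammatory genes, had 145, 187 and 166 TPM in CCR2-high libraries and 391, 339.5 and 344 TPM in CCR2-low libraries (log2 fold change -1.11, SE 0.12, adjusted p = 0.00038). Its relative Klf4 fell by 0.72 on the log2 scale, while Maf was not called (log2 fold change -0.36, adjusted p = 0.19), and was called without CCR2-low replicate 2 (-0.56, adjusted p = 0.038). In the other direction, Pparg, a lipid-sensing nuclear receptor gene, had 63.2, 30.1 and 42.9 TPM in CCR2-high libraries and 11.3, 16.6 and 12.1 TPM in CCR2-low libraries (log2 fold change 1.65, SE 0.23, adjusted p = 0.0011). Runx3 had 2.46, 1.93 and 2.48 TPM in CCR2-high libraries and 0.699, 1.01 and 0.683 TPM in CCR2-low libraries (log2 fold change 0.87, adjusted p = 0.0037).

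MHC class II genes, whose products present peptides to CD4 T cells, were higher in CCR2-high libraries in 12 of 17 tested and lower in 0, with a median log2 fold change of 0.91. H2-Ab1 had 8571, 12059 and 13241 TPM in CCR2-high libraries and 5399.8, 5138 and 4879 TPM in CCR2-low libraries (log2 fold change 1.11, SE 0.14, adjusted p = 0.0007). H2-Eb1 had 6384, 9147 and 9945 TPM in CCR2-high libraries and 4092, 3609.6 and 3668 TPM in CCR2-low libraries (log2 fold change 1.14, SE 0.16, adjusted p = 0.001). In both genes CCR2-high replicate 1 was the lowest of its group and still above every CCR2-low library. The peptide-exchange genes H2-DMa, H2-DMb1 and H2-DMb2 rose by 0.93, 1.21 and 1.22. Ciita, the master coactivator of these promoters, had 44.4, 63.8 and 62.4 TPM in CCR2-high libraries and 28.1, 28.1 and 27.5 TPM in CCR2-low libraries (log2 fold change 0.98, SE 0.14, adjusted p = 0.0012). By contrast the DNA-binding partners of CIITA, Rfx5, Rfxap and Rfxank, had log2 fold changes of -0.09, -0.29 and -0.11 and were not called. H2-Ob, an inhibitor of peptide exchange, had a log2 fold change of 0.06.

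CIITA acts through short promoter boxes. The promoters of a pair of the most abundant members are shown with a box of this kind marked. Each window runs from 250 bases before to 50 after the gene start, read 5′ to 3′ along the gene's strand, from RefSeq on GRCm38.p6. Capitals mark CCAAT or its complement, the Y box bound by the factor NF-Y. H2-Aa is at chr17:34287774-34288073 on the minus strand and H2-Eb1 at chr17:34305617-34305916 on the plus strand.
H2-Aa: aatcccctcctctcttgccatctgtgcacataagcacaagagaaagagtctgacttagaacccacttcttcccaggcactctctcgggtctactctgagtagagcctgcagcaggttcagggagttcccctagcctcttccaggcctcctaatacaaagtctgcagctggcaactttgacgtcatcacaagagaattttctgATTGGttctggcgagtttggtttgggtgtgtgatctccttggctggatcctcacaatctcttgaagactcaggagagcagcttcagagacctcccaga
H2-Eb1: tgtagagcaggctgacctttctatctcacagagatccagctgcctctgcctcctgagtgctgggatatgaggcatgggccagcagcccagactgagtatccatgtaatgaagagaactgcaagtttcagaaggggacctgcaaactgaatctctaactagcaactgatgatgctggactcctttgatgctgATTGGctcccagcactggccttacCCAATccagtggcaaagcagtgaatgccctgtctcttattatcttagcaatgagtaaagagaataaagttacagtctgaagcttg
The first base of the match lies at -48 in H2-Aa and at -59 and -35 in H2-Eb1, counted from the gene start. Of the 17 class II genes, 13 had a window, and 10 of these (76.9%) held CCAAT on either strand, beside 39.0% of 9716 tested genes with a window and 37.9% of all 27025 windows. The share with CCAAT varied among the other lists. It was 85.7% of 14 windows of sterol synthesis and uptake genes, 58.8% of 17 large peritoneal windows and 15.8% of 19 windows of apoptotic cell genes. Part of the X box, AGNNACAGA, was found in 2 of the 13 class II windows (15.4%), beside 6.5% of tested genes. Both motifs were searched on both strands as fixed letters, and a match describes letters only. A window without a match may still hold a box that differs from these letters.

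Of 15 co-stimulatory and co-inhibitory genes tested, 6 were higher and 0 were lower. Cd80, Cd86 and Cd40, the classical partners of T cell activation, had log2 fold changes of -0.08, -0.17 and -0.15 and were not called. Tnfsf9, the 4-1BB ligand gene, had 747, 571 and 623 TPM in CCR2-high libraries and 261, 229.9 and 194 TPM in CCR2-low libraries (log2 fold change 1.50, SE 0.15, adjusted p = 0.00023). Cd83, which stabilises class II at the surface, had 2028, 2469 and 2507 TPM in CCR2-high libraries and 1257, 1159.6 and 1318 TPM in CCR2-low libraries (log2 fold change 0.90, adjusted p = 0.00038).

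Of 20 cytokine and inflammasome genes, 7 were higher and 1 was lower. Il1b had 1063, 732 and 1240.0 TPM in CCR2-high libraries and 145, 301 and 147 TPM in CCR2-low libraries (log2 fold change 2.41, SE 0.28, adjusted p = 0.00043). Il1rn, which encodes the antagonist of the same receptor, had 157, 104 and 152 TPM in CCR2-high libraries and 11.7, 44.2 and 21 TPM in CCR2-low libraries (log2 fold change 2.55, SE 0.36, adjusted p = 0.0011). Il1r2, the decoy receptor gene, had 4.59, 4.72 and 4.18 TPM in CCR2-high libraries and 0.429, 1.24 and 1.05 TPM in CCR2-low libraries (log2 fold change 1.55). Genes for the cytokine and for both of its inhibitors therefore rose together, as did the sensor gene Nlrp3 (log2 fold change 1.24), Tnf (1.53) and the prostaglandin synthase gene Ptgs2 (1.94). Il6 had 373, 308 and 424 TPM in CCR2-high libraries and 270.4, 533 and 262 TPM in CCR2-low libraries and was not called. The anti-inflammatory gene Il10 had 94, 43.7 and 73.2 TPM in CCR2-high libraries and 27.3, 58.9 and 31.5 TPM in CCR2-low libraries (adjusted p = 0.08), and was called without CCR2-high replicate 2 (log2 fold change 1.14, adjusted p = 0.022) and without CCR2-low replicate 2 (1.17, adjusted p = 0.013).

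NF-kB, the factor behind many inflammatory genes, keeps itself in check through its own targets. Of 21 genes of this list, 10 were higher and 1 was lower. The feedback inhibitor gene Tnfaip3, or A20, had 424, 329.9 and 427 TPM in CCR2-high libraries and 129.7, 247 and 164 TPM in CCR2-low libraries (log2 fold change 1.16, SE 0.21, adjusted p = 0.0044). Its binding partner gene Tnip3 had 81.8, 56.5 and 86.6 TPM in CCR2-high libraries and 5.63, 23.1 and 12.4 TPM in CCR2-low libraries (log2 fold change 2.53, adjusted p = 0.0014). Among the subunits, Rel rose by 0.91 (adjusted p = 0.012), while Rela and Relb had log2 fold changes of 0.17 and 0.22 and were not called. The survival genes Bcl2a1a, Bcl2a1b and Bcl2a1d rose by 1.68, 1.43 and 1.67, but share 57.6% to 79.5% of their 50-base windows, so they may not be separate results.

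The Tnfaip3 promoter is shown because the gene is a textbook NF-kB target. Capitals mark GGNNNTTCC on either strand, in the RefSeq window at chr10:19015361-19015660 on the minus strand of GRCm38.p6.
Tnfaip3: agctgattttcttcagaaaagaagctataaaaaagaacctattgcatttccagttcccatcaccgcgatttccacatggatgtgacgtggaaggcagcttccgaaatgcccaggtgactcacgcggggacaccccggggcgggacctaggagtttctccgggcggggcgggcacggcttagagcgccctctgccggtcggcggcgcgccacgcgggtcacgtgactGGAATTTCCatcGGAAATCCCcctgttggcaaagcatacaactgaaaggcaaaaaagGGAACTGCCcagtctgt
Matches begin at -24, -12 and 34. The motif was in 10 of 18 NF-kB list windows (55.6%) and in 7 of 15 cytokine windows (46.7%), beside 22.4% of tested genes.

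Immediate early and stress genes, which can rise while tissue is being digested, gave 1 call higher and 1 lower among 20 tested, with a median log2 fold change of 0.09. Of all genes tested, 8.93% were called higher and 8.74% lower. Fos had 2017, 2329 and 2090.5 TPM in CCR2-high libraries and 2222, 1781 and 1969 TPM in CCR2-low libraries. Atf3 had 890.3 to 946 TPM in CCR2-high libraries and 775 to 878 TPM in CCR2-low libraries. The levels were high in both groups and neither gene was called. The AP-1 motif TGANTCA, planned for this list, was in 0 of its 17 promoter windows, beside 5.0% of tested genes.

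Chemokine genes were higher in 9 and lower in 4 of 23 tested. Ccl4, an inflammatory chemokine gene, had 2822, 2200.3 and 2634 TPM in CCR2-high libraries and 390.1, 624 and 371 TPM in CCR2-low libraries (log2 fold change 2.50, SE 0.20, adjusted p = 6.6e-05). Ccl3 rose by 1.83 and Ccl5 by 2.63. Cxcl10, a ligand for activated T cells, had 687, 706 and 761 TPM in CCR2-high libraries and 175, 258 and 192 TPM in CCR2-low libraries (log2 fold change 1.80, adjusted p = 0.00082). Of the CCR2 ligands, Ccl2 had 539, 799 and 755 TPM in CCR2-high libraries and 482, 453 and 409 TPM in CCR2-low libraries (log2 fold change 0.62, adjusted p = 0.016). Its call was lost without CCR2-high replicate 2 (0.51, adjusted p = 0.056), CCR2-high replicate 3 (0.55, adjusted p = 0.064) or CCR2-low replicate 3 (0.56, adjusted p = 0.063). Another of these ligands, Ccl12, had 352, 543 and 499 TPM in CCR2-high libraries and 236, 163 and 179 TPM in CCR2-low libraries (log2 fold change 1.26, adjusted p = 0.00093), and Ccl7 was not called (0.14). Ccl24, an eosinophil attractant, was lower, at 166, 273 and 235 TPM in CCR2-high libraries and 786, 681 and 733 TPM in CCR2-low libraries (log2 fold change -1.73, adjusted p = 0.0002). Cxcl12, the retention signal of marrow and also a stromal product, fell by 1.70. Without CCR2-high replicate 1 or 2, 2 chemokine genes were lower.

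Of 19 growth factor genes tested, 2 were higher, 7 were lower and 10 were not called, with a median log2 fold change of -0.03. Over all genes tested, 8.93% were called higher and 8.74% lower. Pdgfc had 10, 13.4 and 9 TPM in CCR2-high libraries and 33.7, 24.6 and 35.9 TPM in CCR2-low libraries (log2 fold change -1.46, SE 0.18, adjusted p = 0.0005). Pdgfb, of the same family, had 10.8, 16.3 and 16 TPM in CCR2-high libraries and 5.76, 7.32 and 7.28 TPM in CCR2-low libraries (log2 fold change 0.97, SE 0.17, adjusted p = 0.004). The bone morphogenetic protein genes Bmp2 and Bmp6 fell by 1.03 and 1.32, and Tgfb2 by 2.72. Tgfb1 had a log2 fold change of 0.15 and was not called.

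Matrix genes showed a division by family member. Mmp9, a gelatinase gene, had 95.5, 161 and 164 TPM in CCR2-high libraries and 409, 548 and 358 TPM in CCR2-low libraries (log2 fold change -1.66, SE 0.26, adjusted p = 0.0019). Mmp13, a collagenase gene, had 18.9, 41 and 21.5 TPM in CCR2-high libraries and 7.24, 2.86 and 5.73 TPM in CCR2-low libraries (log2 fold change 2.15, SE 0.31, adjusted p = 0.0012). Mmp19 rose by 1.28. Of their inhibitors, Timp1 rose by 1.33, while Timp2 fell by 1.04 and Timp3 by 1.28. The list gave 6 higher and 3 lower of 13 tested, with 3 higher without CCR2-high replicate 3, CCR2-low replicate 1 or CCR2-low replicate 3. Its summed level went the other way, at 677 to 836 TPM in CCR2-high libraries and 1309 to 1508 TPM in CCR2-low libraries. Integrin and adhesion genes were higher in 7 and lower in 4 of 22. The VLA-4 ligand gene Vcam1 had 69.3, 106 and 104 TPM in CCR2-high libraries and 22.3, 41.4 and 50.8 TPM in CCR2-low libraries (log2 fold change 1.32, adjusted p = 0.011).

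CCR2-high libraries held more transcript of the cell cycle. Of 25 DNA replication genes, 20 were higher and 0 were lower, with a median log2 fold change of 0.74. Of 24 mitosis genes, 18 were higher and 0 were lower, with a median of 1.05. Mcm5, a subunit of the replicative helicase, had 32.1, 30 and 22 TPM in CCR2-high libraries and 9.99, 10.6 and 11.7 TPM in CCR2-low libraries (log2 fold change 1.29, SE 0.17, adjusted p = 0.00066). Uhrf1, which keeps DNA methylation through replication, had 15.6, 14.6 and 9.63 TPM in CCR2-high libraries and 3.2, 3.47 and 4.86 TPM in CCR2-low libraries (log2 fold change 1.55, adjusted p = 0.00085). Mki67, the Ki-67 gene, had 18.4, 15.6 and 14.1 TPM in CCR2-high libraries and 6.92, 9.42 and 6.38 TPM in CCR2-low libraries (log2 fold change 1.00, SE 0.16, adjusted p = 0.0022). The mitotic kinase gene Cdk1 had 10.3, 8.61 and 6.1 TPM in CCR2-high libraries and 2.92, 3.32 and 3.88 TPM in CCR2-low libraries (log2 fold change 1.07, adjusted p = 0.0016). CCR2-low transcripts of these genes were low but not absent.

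The mitosis count depended on single libraries and the replication count less so. Without CCR2-high replicate 1 it was 11 of 24, and without CCR2-low replicate 3 it was 24 of 24, while the replication count ran between 16 and 19 over the 6 such fits. Aurka, a spindle kinase gene, shows this. It had 8.94, 5.84 and 5.63 TPM in CCR2-high libraries and 2.82, 2.53 and 8.7 TPM in CCR2-low libraries, and was called without CCR2-low replicate 3 only (log2 fold change 1.06, adjusted p = 0.005, beside 0.59 in all libraries).

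The promoter of Mcm6 is shown from the replication list and that of Cdk1 from the mitosis list, each with 1 motif marked. Capitals mark TTTNNCGC, a part of the E2F site, in Mcm6 (chr1:128359656-128359955, minus strand) and CCAAT in Cdk1 (chr10:69352863-69353162, minus strand), on either strand, in RefSeq windows of GRCm38.p6.
Mcm6: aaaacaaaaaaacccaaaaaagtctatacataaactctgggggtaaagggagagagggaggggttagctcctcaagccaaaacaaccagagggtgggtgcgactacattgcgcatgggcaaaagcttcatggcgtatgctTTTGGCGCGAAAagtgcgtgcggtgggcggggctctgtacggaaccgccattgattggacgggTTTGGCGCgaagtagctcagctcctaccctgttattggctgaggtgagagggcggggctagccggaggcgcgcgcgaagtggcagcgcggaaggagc
Cdk1: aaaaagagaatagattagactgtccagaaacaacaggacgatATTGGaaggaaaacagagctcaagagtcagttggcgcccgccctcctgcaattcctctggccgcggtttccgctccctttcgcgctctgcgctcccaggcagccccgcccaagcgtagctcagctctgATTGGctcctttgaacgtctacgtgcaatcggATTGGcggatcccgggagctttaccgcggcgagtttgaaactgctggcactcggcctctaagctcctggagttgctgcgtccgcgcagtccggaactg
In Mcm6 a match on each strand overlaps at -110 and -106, and another match begins at -47. In Cdk1 matches begin at -208, -80 and -48. The E2F letters were in 9 of 23 replication windows (39.1%) and in 1 of 20 mitosis windows (5.0%), beside 8.5% of tested genes. That 1 mitosis window was the one of Cdk1, where they are left unmarked, so Cdk1 was not typical of its list for these letters. CCAAT was in 14 of 23 replication windows (60.9%) and in 18 of 20 mitosis windows (90.0%), beside 39.0% of tested genes. The Mcm6 window was among those with CCAAT, also left unmarked.

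Lipid genes moved in part. Of 20 genes of lipid-associated macrophages, 9 were higher and 2 were lower. Fabp4 was among those lower, with a call that did not hold under every setting. The summed level of the list was 16050 to 20639 TPM in CCR2-high libraries and 19289 to 26413 TPM in CCR2-low libraries, and the groups overlapped. Spp1, the osteopontin gene, had 233, 31.9 and 49.4 TPM in CCR2-high libraries and 1.42, 7.27 and 1.35 TPM in CCR2-low libraries (log2 fold change 4.34, SE 0.65, adjusted p = 0.0015). Acp5, a lysosomal phosphatase gene, had 55.9, 35 and 36 TPM in CCR2-high libraries and 9.61, 12.3 and 14.3 TPM in CCR2-low libraries (log2 fold change 1.71, SE 0.19, adjusted p = 0.00038). Lpl, the lipoprotein lipase gene, had 624, 273 and 324 TPM in CCR2-high libraries and 100.1, 197 and 141 TPM in CCR2-low libraries (log2 fold change 1.43, adjusted p = 0.012, and 0.053 with no filter). For all 3 genes CCR2-high replicate 1 was the highest library. The list count was 6 without CCR2-high replicate 1 or without CCR2-low replicate 1. Genes of sterol synthesis and uptake were higher in 11 of 21 tested and lower in 0, with a median log2 fold change of 0.41. Cyp51, a demethylase of sterol synthesis, had 32, 24.5 and 25.3 TPM in CCR2-high libraries and 11.3, 12.6 and 14.9 TPM in CCR2-low libraries (log2 fold change 1.02, adjusted p = 0.0025). The sterol count was 5 without CCR2-high replicate 1 and 7 without CCR2-low replicate 1. The promoter motif ATCACNCCA, planned for the sterol list, was in 1 of its 14 windows (7.1%), beside 0.5% of tested genes.

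Genes of iron and haem handling were lower in 6 of 16 tested and higher in 0. The iron exporter gene Slc40a1 had 58.1, 68.7 and 44.8 TPM in CCR2-high libraries and 158, 141 and 189 TPM in CCR2-low libraries (log2 fold change -1.50, SE 0.16, adjusted p = 0.00029). The iron uptake gene Tfrc and the iron carrier gene Trf fell by 0.81 and 0.78. Fth1, the ferritin heavy chain, had 6581 to 7606 TPM in CCR2-high libraries and 6537 to 7205 TPM in CCR2-low libraries and was not called. Of 17 glycolysis genes, Slc2a1, the GLUT1 gene, was the 1 called, at 23.5, 13.8 and 22.4 TPM in CCR2-high libraries and 3.86, 12.1 and 6.7 TPM in CCR2-low libraries (log2 fold change 1.37, adjusted p = 0.012). Its call was lost without CCR2-high replicate 1 (1.24, adjusted p = 0.056) and with no filter (adjusted p = 0.052). Without CCR2-low replicate 2, 5 glycolysis genes were called higher.

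Of 79 genes for ribosomal proteins, 42 were higher and 1 was lower, with a median log2 fold change of 0.38, and mitochondrially encoded genes were lower in 13 of 15, with a median of -0.53. The summed level of the mitochondrially encoded genes was 38242 to 46201 TPM in CCR2-high libraries and 57355 to 69857 TPM in CCR2-low libraries. The groups did not overlap in 73 ribosomal genes that were higher and 1 that was lower, and in all 15 mitochondrially encoded genes, which were lower. Over all genes tested this share was 37.7%. Both counts of calls depended on single libraries. The ribosomal count was 6 without CCR2-high replicate 1 and 5 without CCR2-low replicate 3, and the mitochondrial count was 6 without CCR2-high replicate 2 or CCR2-low replicate 3. With TPM rescaled after leaving out both families, 1192 genes were higher and 1436 lower in CCR2-high libraries.

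**Figure D3:**
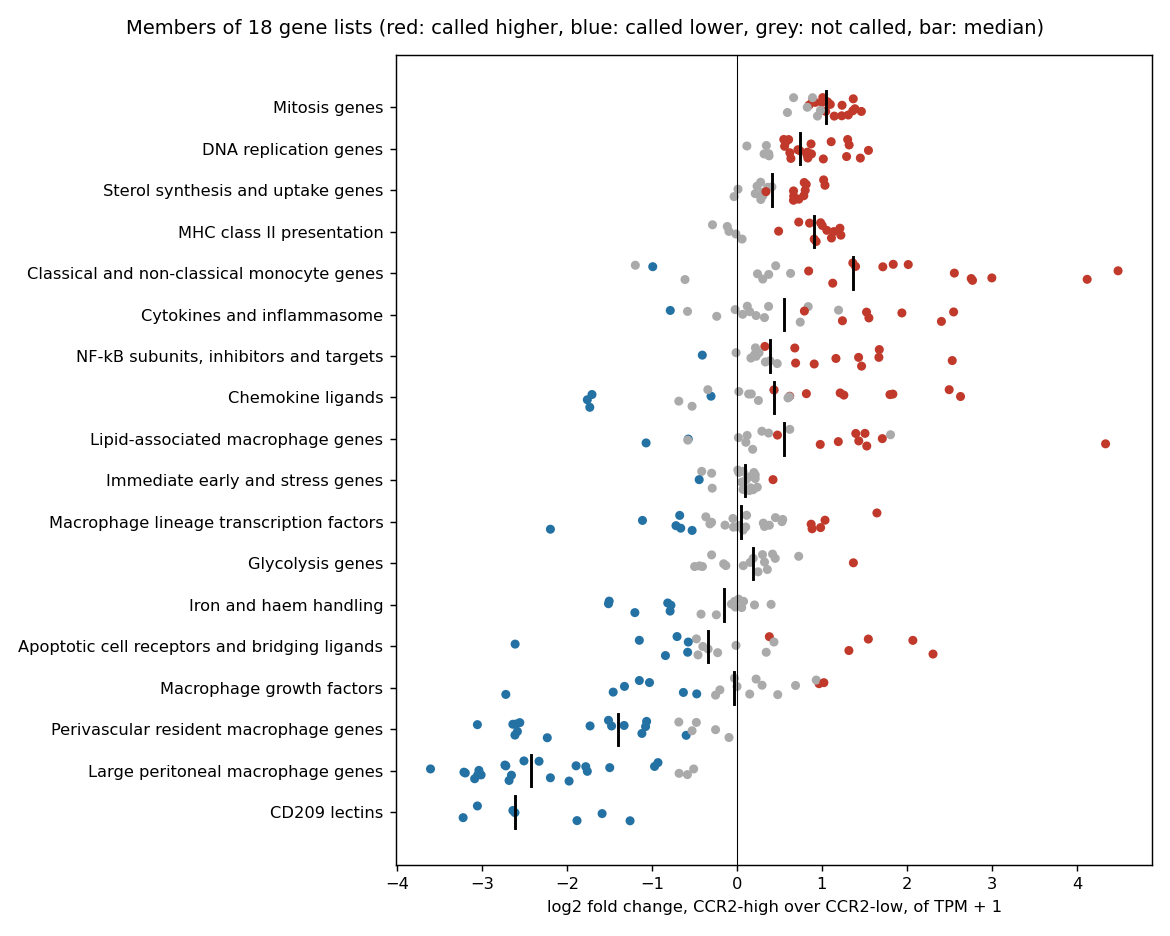
Log2 fold changes (CCR2-high over CCR2-low, TPM + 1) of the tested members of 18 lists, with 1 point per gene, with the list median as a black bar. Points right of 0 are higher in CCR2-high; the medians run from -2.61 for the CD209 lectins to 1.36 for the monocyte genes.

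Libraries with the same label differed from each other in sets of genes. In CCR2-low replicate 2, 23 of 24 large peritoneal macrophage genes were at the highest level of their group, beside 35.4% of all genes tested. In the same library 15 of 20 perivascular genes were at the lowest level, beside 5011 of all 15467 genes tested. The median log2 deviations of these lists from the group mean were 0.79 and -0.21, in that order. CCR2-low replicates 1 and 3 had deviations of -0.31 and -0.41 for the peritoneal list and of 0.17 and 0.10 for the perivascular list. In CCR2-high libraries, replicate 2 was highest in 17 of 20 perivascular and in 7 of 7 Cd209 genes, beside 43.6% of all genes tested. The perivascular genes were thus high in replicate 2 of the CCR2-high label and low in replicate 2 of the CCR2-low label.

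CCR2-high replicate 1 was highest of its group in 24 of 24 mitosis genes, 21 of 25 replication genes and 18 of 20 lipid-associated genes, beside 35.5% of all genes tested. It was lowest of its group in 13 of 17 MHC class II genes, beside 5111 of all 15467 genes tested. It was highest in the other 4 class II genes, and the median deviation of that list was -0.28. CCR2-high replicate 3 was highest in 15 of 18 endothelial and 7 of 8 mesothelial genes, beside 20.9% of all genes tested. CCR2-high replicate 3 and CCR2-low replicate 2 shared high levels of Lcn2, the lipocalin-2 gene, which had 0.716, 0.188 and 33.1 TPM in CCR2-high libraries and 0.499, 19.9 and 1.3 TPM in CCR2-low libraries. Deviations of these libraries from their group means correlated at r = 0.37 across genes, which are not independent, and this describes the pair only. CCR2-low replicate 1 had little mast cell transcript. The tryptase gene Tpsb2 had 14.7, 5.43 and 7.15 TPM in CCR2-high libraries and 0.193, 20.3 and 22.2 TPM in CCR2-low libraries.

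Without CCR2-low replicate 2, further genes were called higher in CCR2-high libraries. These were, with their log2 fold changes without and with that library, Vegfa (1.37 and 0.93), the lectin receptor gene Clec4e (1.47 and 0.98), the lactate exporter gene Slc16a3 (1.08 and 0.73) and Nr4a1 (0.78 and 0.54), in addition to Il10.

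**Figure D4:**
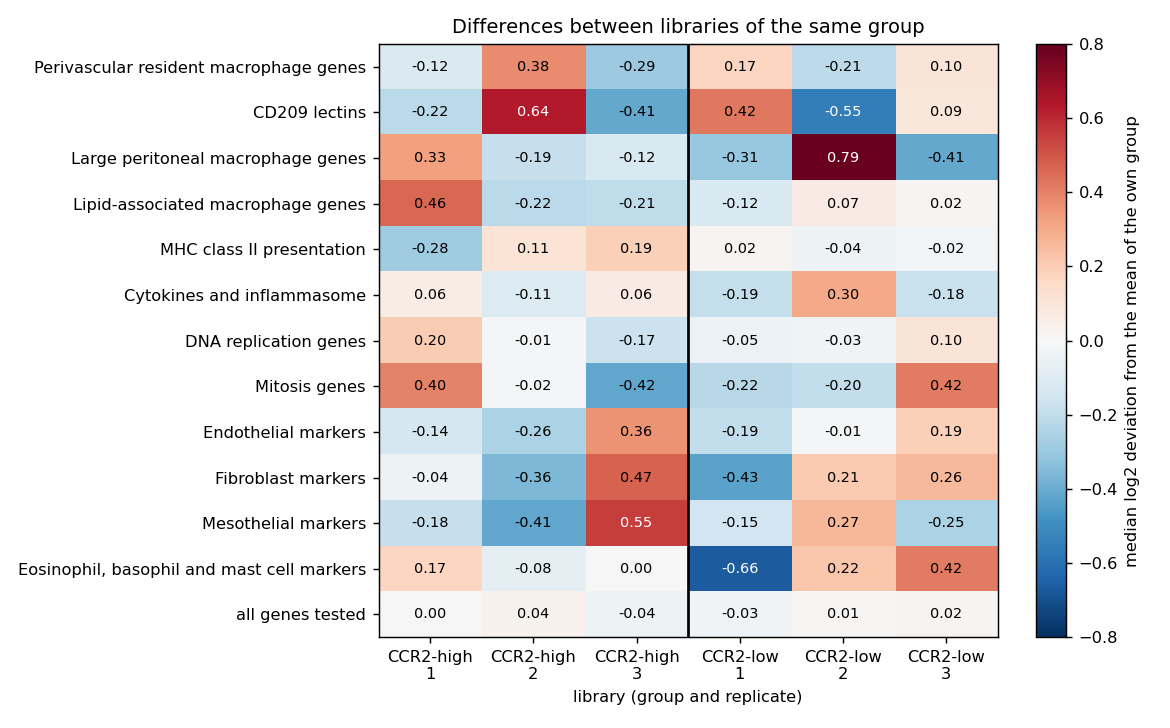
Median log2 deviation of each library from the mean of its own group, for 12 lists and all genes tested, with CCR2-high libraries left of CCR2-low libraries. Red cells lie above and blue cells below the group mean; CCR2-low replicate 2 reaches 0.79 for the large peritoneal macrophage genes while the medians of all genes tested run from -0.04 to 0.04.

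Further genes with large increases had roles outside the lists. Mpeg1, which encodes the pore-forming perforin-2, had 248, 158 and 203 TPM in CCR2-high libraries and 26.7, 26.2 and 33.0 TPM in CCR2-low libraries (log2 fold change 2.77, SE 0.18, adjusted p = 1.9e-05). Sema4d, a semaphorin gene, had 45.8, 25.9 and 39.6 TPM in CCR2-high libraries and 2.6, 4.58 and 3.69 TPM in CCR2-low libraries. Gdf3, a TGF-beta family gene, had 26.1, 6.39 and 15.4 TPM in CCR2-high libraries and 0.859, 1.47 and 0.439 TPM in CCR2-low libraries. Parvg, a gene of integrin-linked adhesion, had 16.7, 14.3 and 14.7 TPM in CCR2-high libraries and 1.79, 1.41 and 1.63 TPM in CCR2-low libraries. The groups did not overlap in these 4 genes, as the naming rule required.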

How the data were processed

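Sorted macrophages were profiled by RNA-seq. The authors deposited TPM per gene and library, per the file headers; no source used here names the aligner or counter. The table holds 28347 genes, 27702 of which matched GENCODE M21, the source of positions. Genes with at least 1 TPM in 3 of the 9 steady-state libraries were kept, and log2(TPM + 1) was fitted in limma 3.58.1 (R 4.3.3) with a mean-variance trend, all 3 groups sharing the spread. The script was tested on simulated data. The authors' own fold changes were not used. The members and gene lists were chosen with earlier results of these data known. Genes were named as the 4 markers, the first 4 members and up to 3 best called members per direction of each list, and the 15 largest called changes in each direction with a mean of at least 10 TPM and no overlap. Not all of these are described, and further genes were named after their values were seen, among them Adgre1, Csf1r, Aurka, Lcn2, Tpsb2 and Tnfaip3. Read totals are unknown, so no counting intervals are given. Promoter windows came from RefSeq; proteins were not analysed here. In all, 19 alternative settings were run.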

Additional observations from a re-analysis of the deposited data

How the results depend on the processing

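Of 112 named genes called, 104 stayed called and none changed sign under each of the 19 settings that tested them; 101 were tested under all 19, and 11 fell below the filter of a mean of at least 5 TPM. The 8 that did not stay called, Ccl2, Cd209a, Fabp4, Fcgr1, Gas6, Lpl, Saa3 and Slc2a1, each lost the call somewhere. Deviations of same-numbered libraries correlated at -0.03, -0.36 and -0.22. These values cannot tell whether such libraries came from the same mice, which the labels do not say. The replicate block left 1795 genes called, 844 higher. With a mean of at least 5 TPM, 808 were lower, and with no filter 931 were higher and 1245 lower. An absolute log2 fold change of 1 left 845 (337 higher, 508 lower). Leaving out 1 library gave 1488 to 3439 calls, 708 to 1861 higher and 780 to 1578 lower. Ribosomal genes called higher, 42 in the reported fit, were 13 with the block, 24 with median-of-ratios scaling and 22 with quantile normalisation; mitochondrial genes called lower, 13 in the reported fit, were 6 with the block and with median-of-ratios scaling. Genes not called could change sign: Lcn2 was 0.0024 under median-of-ratios scaling and 0.069 under quantile normalisation, and Spi1 was -0.0086 under quantile normalisation, where Lyz2 was 0. Over the libraries left out in turn, log2 fold changes ran from -0.020 to 0.28 for Ccl7, -0.14 to 0.20 for H2-Ob, -0.056 to 0.46 for Il6, -1.54 to 1.15 for Lcn2, -0.16 to 0.16 for Lyz2, -0.41 to 0.10 for Mgl2, -0.24 to 0.019 for Rfx5, -0.22 to 0.024 for Rfxank and -1.24 to 0.90 for Tpsb2. The causes were not tested. Low genes are limited by depth, which is not given.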
